A study of Homo sapiens with 2 samples.

Results

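The cells described here carried a gRNA against PCGF5 and were compared with cells carrying a non-targeting gRNA, in 1 pool of A549-TetOn-Cas9 cells. A549 is a lung adenocarcinoma line, and its Cas9 was induced by doxycycline for 2 days, after which the cells grew for another 5 days. The sample protocols name doxycycline, whereas the series description names tamoxifen as the inducer. All cells, the non-targeting ones included, had the inducible Cas9, the puromycin selection and the induction. By design they differed only in the gRNA delivered by lentivirus (120 gRNAs, 4 for each of 25 genes and 20 non-targeting). A transcriptome library and a gRNA library were prepared from the same cells, so the series holds 1 pool and no biological replicate.

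A gRNA was called in a cell at more than 3 UMIs, and cells with exactly 1 called gRNA were kept. This gave 99 PCGF5 gRNA cells and 696 non-targeting cells of 5744 cells in all. PCGF5_gRNA1 was the only called gRNA in 12 cells, PCGF5_gRNA2 in 25, PCGF5_gRNA3 in 23 and PCGF5_gRNA4 in 39. Just inside the threshold, at 4 UMIs, lay 2 cells of PCGF5_gRNA1, 1 of PCGF5_gRNA3 and 1 of PCGF5_gRNA4, and no PCGF5 gRNA had a cell at 3 UMIs, just outside it. Of 20 non-targeting gRNAs, 15 had 10 cells or more, between 13 and 134 each. PCGF5 gRNA cells had a median of 38256 gene UMIs, against 33581.5 in non-targeting cells, and 6 and 46 cells of these pools had fewer than 10000 UMIs. Gene UMIs were summed over the cells of a pool and scaled to 1000000 gene UMIs (CPM). Differences are log2 ratios of CPM + 1 between the pools, and a gene was past the fold at 0.5 in either direction. Cells and gRNAs of 1 pool are not replicates, so no test was run. The 95% intervals are exact and cover counting error only. Beside the values stands the range of those 15 non-targeting gRNAs, each set singly against the other non-targeting cells. These groups had a median of 30 cells, fewer than the 99 of the PCGF5 pool, so counting error widens their range for scarce genes. For such genes a pool value inside the range says little.

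PCGF5 is a RING finger protein of the Polycomb group. It pairs with the ubiquitin ligase RING1 or RNF2 and with RYBP or YAF2 in a variant form of Polycomb repressive complex 1 (PRC1), which places monoubiquitin on histone H2A (H2AK119). The paralog PCGF3 forms the closest related complex, and AUTS2 and casein kinase 2 are known partners of both. The mark is read by JARID2 and AEBP2, accessory subunits of PRC2, the complex in which EZH2 methylates H3K27, and genes under both marks are typically developmental regulators kept silent in differentiated cells.

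All 4 gRNAs match the coding sequence of PCGF5 (ENSG00000180628, chromosome 10, 91163012 to 91284337, plus strand, GRCh38). The sites are shown because they lie at different places in the coding sequence. They are the reference bases of GRCh38, 5′ to 3′ on the plus strand, with the adjacent NGG in capitals; the coordinates are those of the matched spacer without the NGG.
PCGF5_gRNA1, chr10:91222864-91222883: agccacgaatggctacccaaAGG
PCGF5_gRNA2, chr10:91222946-91222965: gatcaagccaacaacagtgaCGG
PCGF5_gRNA3, chr10:91240514-91240533: aagatagcaatgattgcccaAGG
PCGF5_gRNA4, chr10:91264428-91264447: aagttggatgtgctgtgcaaTGG
In the canonical transcript of GENCODE 44, with 10 exons and 256 codons, the expected cuts of PCGF5_gRNA1 and PCGF5_gRNA2 fall in exon 2, at codons 3 and 31, that of PCGF5_gRNA3 in exon 3 at codon 53, and that of PCGF5_gRNA4 in exon 8 at codon 196. The first 3 cuts lie after 1.2%, 11.8% and 20.7% of the coding bases, and the last after 76.4%. PCGF5_gRNA4 has a second exact match next to an NGG, at chr15:97565796-97565815 on the minus strand, inside the long non-coding RNA gene ENSG00000287321. Indels were not measured here. The transcript counts come from a 3′ library, and whether its reads cover these sites was not examined.

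The pooled level of PCGF5 mRNA was not lower in PCGF5 gRNA cells. It had 122 UMIs (30.8 CPM) in PCGF5 gRNA cells and 704 UMIs (28.0 CPM) in non-targeting cells, a ratio of 1.10 (0.900 to 1.33). The cells of PCGF5_gRNA1 had 9 UMIs of PCGF5 (23.4 CPM, counting interval 10.7 to 44.4), those of PCGF5_gRNA2 41 UMIs (37.5 CPM, 26.9 to 50.9), those of PCGF5_gRNA3 21 UMIs (22.8 CPM, 14.1 to 34.9) and those of PCGF5_gRNA4 51 UMIs (32.6 CPM, 24.3 to 42.9). The gRNA groups thus lay on both sides of the control, with log2 ratios of -0.25, 0.41, -0.28 and 0.21, and all 4 stayed within the -0.33 to 0.66 of single non-targeting gRNAs. The paper took lower expression of target genes, shown for a set of them in aggregate, as a sign that its gRNAs worked. It also proposes that nonsense-mediated decay likely removes transcripts carrying out-of-frame indels. PCGF5 gave no such sign here, for the gRNAs or for their labels. A 3′ count does not itself show a frameshift, so this level does not measure how many cells lost the protein. Why the PCGF5 level was not lower was not tested. PCGF3, the closest paralog, was at a log2 ratio of 0.18 (38 UMIs in PCGF5 gRNA cells, 210 UMIs in non-targeting cells; ratio interval 0.79 to 1.63).

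**Figure D1:**
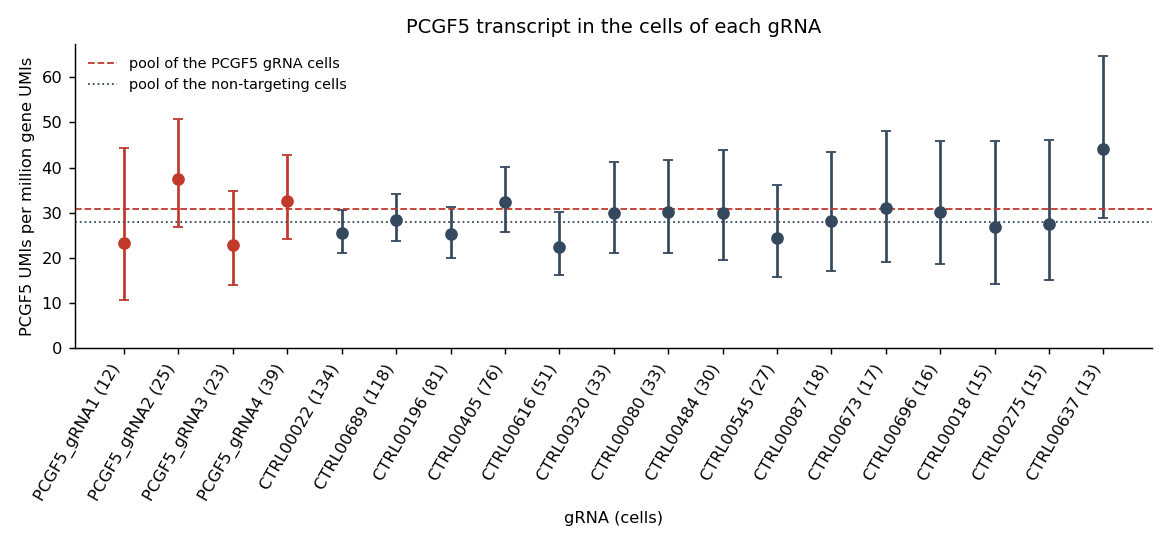
PCGF5 CPM (vertical axis) in the cells of each PCGF5 gRNA (left) and of each non-targeting gRNA with at least 10 cells (right), with cell numbers in brackets, exact 95% Poisson intervals as bars and the levels of both pools as horizontal lines. The 4 PCGF5 gRNA groups sit between 22.8 and 37.5 CPM, inside the 22.5 to 44.1 CPM of the non-targeting groups.

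No gene of PRC1 or PRC2 was past the fold. Of the 35 PRC1 genes, all were measured (at least 50 UMIs in both pools together), and 0 reached a log2 ratio of 0.5 in either direction. Their median log2 ratio was -0.02, against 0.01 over all 11814 genes measured. The catalytic genes RNF2 and RING1 had log2 ratios of -0.27 (30 UMIs in PCGF5 gRNA cells, 234 UMIs in non-targeting cells) and -0.04 (39 and 256 UMIs). RYBP and YAF2, which stimulate the ligase, were at 0.22 and -0.03. Among the partners of PCGF5, AUTS2 was at 0.31 and FBRSL1, its relative, at 0.29, and both were above 0 with all 4 gRNAs, from 0.12 to 0.50 for AUTS2 and from 0.13 to 0.40 for FBRSL1. Both fell inside the non-targeting range, which reached 0.84 for AUTS2 and 0.55 for FBRSL1. The casein kinase 2 genes CSNK2A1, CSNK2A2 and CSNK2B were at -0.07, -0.16 and -0.01.

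The other paralogs also stayed within 0.5. PCGF1, PCGF2, BMI1 and PCGF6 had log2 ratios of -0.16, -0.08, -0.28 and 0.21. The members furthest from 0 were CBX8 at -0.41 (43 UMIs in PCGF5 gRNA cells, 370 UMIs in non-targeting cells), CBX2 at 0.35 (43 and 208 UMIs) and MGA at -0.34 (53 and 433 UMIs); CBX2 and CBX8 bind H3K27 methylation in canonical PRC1, and MGA belongs to the PCGF6 complex. Of 14 PRC2 genes, 13 were measured, 0 passed a log2 ratio of 0.5 and the median was -0.03. EZH2 was at -0.07, SUZ12 at -0.03, EED at -0.05, JARID2 at 0.07 and AEBP2 at -0.22, and the members furthest from 0 were the accessory subunits LCOR at -0.31 and EPOP at -0.23. The PRC1 genes not named here lay between -0.28 (USP7) and 0.25 (SCML2), and the PRC2 genes not named between -0.04 (PHF19) and 0.05 (PHF1). Among the enzymes that remove the H2A mark, MYSM1 was at 0.29, BAP1 at 0.23 and USP16 at -0.01, and only USP21 passed the fold, at -0.55 with 4 UMIs in PCGF5 gRNA cells and 49 UMIs in non-targeting cells (ratio interval 0.14 to 1.41).

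Among classical Polycomb targets, HOX genes had a median close to that of all genes, and other developmental regulators a somewhat higher one. Of 39 HOX genes, 19 were measured, with a median log2 ratio of 0.00, and 1 was past the fold: HOXA7, at -0.57 (24 UMIs in PCGF5 gRNA cells, 238 UMIs in non-targeting cells). Its 4 gRNA groups lay at -1.54, 0.40, -0.97 and -1.32, on both sides of 0. HOXB8 was at -0.45 and HOXD11 at -0.47. Of 89 other developmental regulators, 33 were measured, and 4 were higher and 2 lower by the fold, where 2.4% and 2.72% of all genes measured were (5.11% in either direction). The list's median was 0.11, beside 0.01 over all genes and inside the -0.44 to 0.14 of single non-targeting gRNAs. Of its 33 measured genes, 21 were above 0, and the medians by gRNA were 0.05, 0.02, 0.04 and 0.09. In sum the list had a ratio of 1.07 (1.01 to 1.13). Its 363.5 CPM in PCGF5 gRNA cells lay inside the 271.6 to 366.9 CPM of single non-targeting gRNAs.

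Of the higher ones, 3 are described here, transcription factors with at most 21 UMIs in PCGF5 gRNA cells. PAX6, an eye and brain regulator, had 21 UMIs in PCGF5 gRNA cells and 70 UMIs in non-targeting cells (log2 ratio 0.74), with gRNA values of -1.92, 1.14, 0.17 and 0.97. MSX2, a homeobox factor of skull and limb, had 17 and 59 UMIs (0.66), and IRX3 19 and 77 UMIs (0.51). In none of these 3 did all PCGF5 gRNAs lie on the same side of 0, and only MSX2 was above its non-targeting range (highest 0.57). The lower ones were NR2F1, a nuclear receptor, at -0.70 (15 and 170 UMIs), lower with all 4 gRNAs (-1.11, -0.48, -0.87 and -0.68), and GREM1, a BMP antagonist, at -0.54 (28 and 270 UMIs). NR2F1 was inside its non-targeting range of -1.41 to 0.86.

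Of 11814 genes measured, 283 (2.4%) were at a log2 ratio of 0.5 or higher and 321 (2.72%) at -0.5 or lower, and 18 and 28 of them reached 1. With the added demand that all 4 PCGF5 gRNAs lie on the same side of 0, 134 genes (1.13%) were higher and 204 (1.73%) lower. Most were scarce transcripts: 100 of the 134 and 158 of the 204 had fewer than 200 UMIs in both pools together. A gene of 50 UMIs is expected at 6.81 UMIs in the PCGF5 pool when nothing differs. The pools of EZH2 (167 cells) and MTF2 (190 cells), other Polycomb targets of the screen, are larger and share the non-targeting cells; they had 142 and 154 genes higher and 209 and 211 genes lower by the same fold. Single non-targeting gRNAs of like cell number, set against the other non-targeting cells, had counts of the same order: CTRL00196 (81 cells) had 405 genes higher and 520 lower, CTRL00689 (118 cells) 274 and 303, and CTRL00022 (134 cells) 185 and 427. Beyond all 15 non-targeting gRNAs lay 31 of the 134 higher and 17 of the 204 lower genes. These genes were chosen for values far from 0, and the share over all genes measured is not given here. The 2 counts therefore have no baseline. When, for each gene, the PCGF5 gRNA cell with most of its UMIs was left out, 69 of the 134 higher genes were under the fold.

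The 12 highest genes among those with all gRNAs on one side included 7 with at least 20% of their UMIs in 2 cells, described with the interferon-stimulated genes, and 4 with none there. IFIT3, an antiviral protein induced by interferon, was highest, with 213 UMIs in PCGF5 gRNA cells and 187 UMIs in non-targeting cells (log2 ratio 2.70), but 169 of the 213 UMIs came from PCGF5_gRNA3, against 3, 9 and 32 in PCGF5_gRNA1, PCGF5_gRNA2 and PCGF5_gRNA4. PPM1K (1.34), a mitochondrial phosphatase of branched-chain amino acid breakdown, APOL2 (1.11) and APOL6 (0.90), apolipoprotein L genes, and ISG20 (1.03), an interferon-induced exonuclease, shared this feature: 13 of the 26 PPM1K UMIs, 43.9% of the APOL2 UMIs, 57.4% of the ISG20 UMIs and 26.8% of the APOL6 UMIs of the pool lay in those 2 cells. Without the 2 cells, the log2 ratios were 0.35 for IFIT3, 0.54 for PPM1K, 0.36 for APOL2, -0.10 for ISG20 and 0.52 for APOL6. TTC39B, a regulator of the sterol receptor LXR (1.00; 15 UMIs in PCGF5 gRNA cells, 35 UMIs in non-targeting cells) and GPNMB (0.98; 29 and 81 UMIs), a lysosomal and melanosomal glycoprotein, had 33.3% and 20.7% of their UMIs in the 2 cells and were at 0.58 and 0.71 without them. In IFIT3, PPM1K, APOL2, ISG20, GPNMB and PXDN, at least 50% of the pool's UMIs lay in 4 cells, that is, in under 5% of its cells. The same held for genes of few UMIs named elsewhere here, among them USP21, HOXD11, CXCL8, MUC1 and MUC5AC, and for 118 of the 204 lower genes. A gene with at most 8 UMIs in the pool meets this limit however its UMIs are spread, as HOXD11 did with 8 UMIs in 8 cells. For genes that scarce, the limit does not show that a few cells carry the transcript.

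The other 5 genes of the 12 had at most 1 UMI in the 2 cells. SERTAD4, a gene of the SERTA domain family, had 30 UMIs in 22 PCGF5 gRNA cells and 60 UMIs in 53 non-targeting cells, 7.57 against 2.39 CPM (ratio 3.17, 1.98 to 5.00). Its gRNA groups had 3, 8, 10 and 9 UMIs, at log2 ratios of 1.38, 1.30, 1.81 and 1.00, and its pooled log2 ratio of 1.34 was the highest of the 25 target pools. One single non-targeting gRNA reached 1.44, above the pool. VCAN, which encodes the matrix proteoglycan versican, had 108 UMIs in PCGF5 gRNA cells and 296 UMIs in non-targeting cells (1.15), with gRNA values of 1.21, 0.85, 1.97 and 0.57, and single non-targeting gRNAs ran from -2.44 to 2.07. SASH1, a scaffold protein, had 44 and 141 UMIs (0.87) and was above each of the 15 non-targeting gRNAs (highest 0.66), with gRNA values of 1.72, 1.16, 0.55 and 0.50. MAMSTR, a muscle transcriptional coactivator, had 19 and 51 UMIs (0.94), and PXDN, a peroxidase of basement membrane collagen, 18 and 46 UMIs (0.97), of which 12 were in PCGF5_gRNA3 cells.

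**Figure D2:**
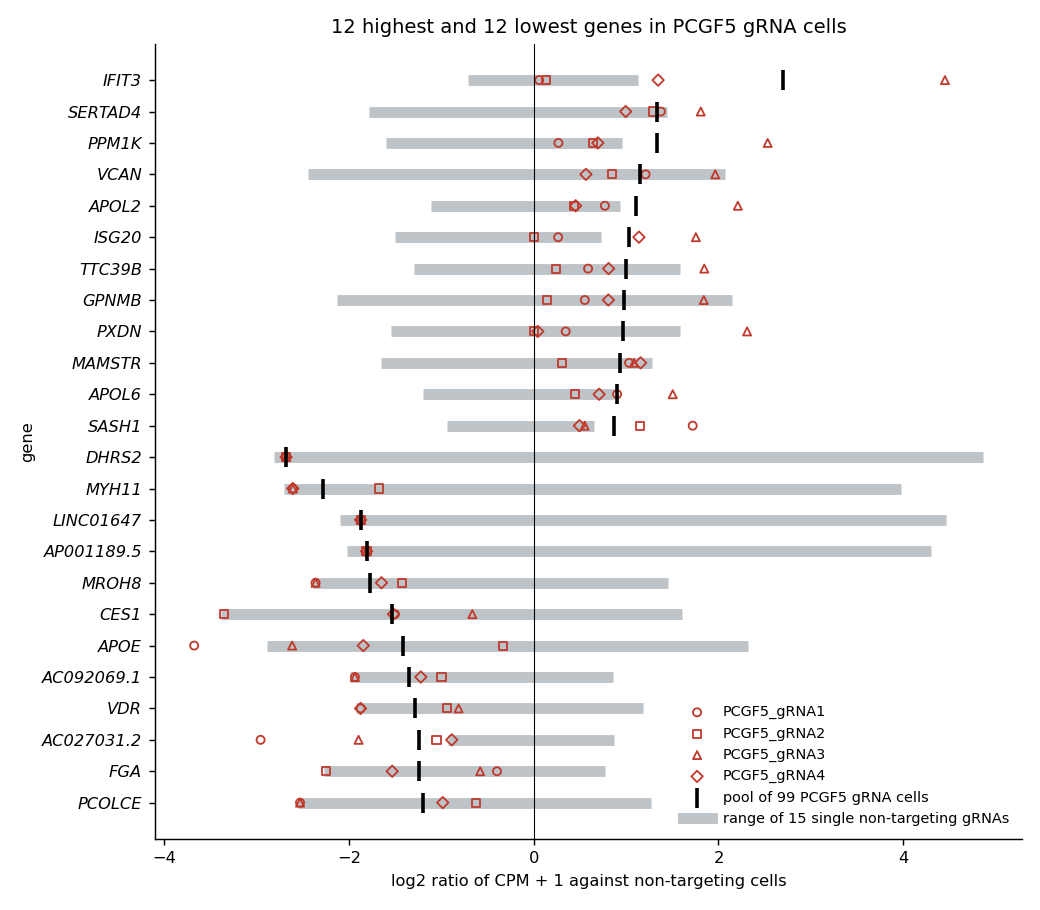
Log2 ratio of CPM + 1 against all non-targeting cells (horizontal axis) for the 12 highest and 12 lowest genes with all PCGF5 gRNAs on the same side of 0; open symbols are the 4 PCGF5 gRNAs, black ticks the pool of 99 cells and grey bars the range of 15 single non-targeting gRNAs. For IFIT3 the PCGF5_gRNA3 cells stand apart from the other 3 groups, and for 10 of the 12 highest genes PCGF5_gRNA3 was the highest group.

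Among the 12 lowest genes, 3 had no UMI in PCGF5 gRNA cells, and in each of them 1 non-targeting cell held most UMIs. DHRS2, a mitochondrial reductase, had 136 UMIs in non-targeting cells, 124 of them in 1 cell of CTRL00196. Against a floor of 3 UMIs over the pool it was at least 7.14-fold lower in PCGF5 gRNA cells, and without that cell 12 UMIs remained in non-targeting cells. The non-coding RNAs LINC01647 and AP001189.5 had 67 and 63 UMIs in non-targeting cells, at least 3.52-fold and 3.31-fold above the PCGF5 pool, and 0 and 1 UMI without their top cell, again of CTRL00196. For MYH11, the smooth muscle myosin heavy chain, PCGF5 gRNA cells had 1 UMI and non-targeting cells 128 UMIs, of which 51.6% were in the cells of CTRL00080.

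The remaining lowest genes had their UMIs in 57 to 139 non-targeting cells. MROH8 had 2 UMIs in PCGF5 gRNA cells and 104 UMIs in 71 non-targeting cells (log2 ratio -1.77), the lowest of the 25 target pools. CES1, a liver-type carboxylesterase, had 10 and 231 UMIs (-1.53), APOE, the lipid carrier, 15 and 296 UMIs (-1.42), VDR, the vitamin D receptor, 2 and 67 UMIs (-1.28), FGA, the fibrinogen alpha chain, 4 and 94 UMIs (-1.24), and PCOLCE, which enhances procollagen processing, 6 and 120 UMIs (-1.20). All of these lay inside the range of single non-targeting gRNAs, which reached -2.39 for MROH8, -3.38 for CES1 and -2.88 for APOE. The non-coding gene AC092069.1 was at -1.35. AC027031.2, also non-coding, had 9 UMIs in 9 PCGF5 gRNA cells and 170 UMIs in 139 non-targeting cells (-1.25; ratio 0.336, 0.151 to 0.653), with 0, 3, 1 and 5 UMIs in the 4 gRNA groups. It was the only one of the 12 lowest below every single non-targeting gRNA (-0.93 to 0.87).

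Abundant transcripts were closer to control. Of 1808 genes with at least 2000 UMIs, 113 were higher and 166 lower with all 4 PCGF5 gRNAs, at any size, and the genes named here were chosen after their values were seen. The 4 gRNAs can share a side by chance. The same count over all genes measured is not given here, so these numbers have no baseline. IGFBP7, a secreted protein that binds insulin-like growth factors, had 1648 UMIs in PCGF5 gRNA cells and 7573 UMIs in non-targeting cells, 415.7 against 301.1 CPM. Its gRNA groups were at 405.1, 428.0, 473.4 and 375.8 CPM, all above the non-targeting pool, and its log2 ratio of 0.46 (ratio 1.38, 1.31 to 1.46) was inside the -0.51 to 0.59 of single non-targeting gRNAs. SH3BGRL3, a thioredoxin-like protein, was at 0.31 and above every non-targeting gRNA (highest 0.26), whereas PTOV1 was at -0.28 and below every one (lowest -0.22). DDIT4, a stress-induced inhibitor of mTORC1, was at -0.44 with 286 UMIs in PCGF5 gRNA cells and 2476 UMIs in non-targeting cells, and its gRNA groups were at -0.16, -0.29, -0.85 and -0.43. PDLIM5 was at -0.40, MMP7, a matrix metalloproteinase, at -0.35, HPGD, which inactivates prostaglandins, at -0.28, and JUNB, an AP-1 subunit, at -0.27.

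Interferon-stimulated genes were the list with most members past the fold, and most of the excess UMIs lay in 2 cells. Of 65 listed genes, 44 were measured, 15 of them higher (34 of 44 above 0) and 1 lower, IRF7 (-0.58), with a median log2 ratio of 0.29 beside 0.01 over all genes. In sum they had 4581 UMIs (1156 CPM) in PCGF5 gRNA cells and 18547 UMIs (737.3 CPM) in non-targeting cells, a ratio of 1.57 (1.52 to 1.62). By gRNA, the sum was 740.1 CPM for PCGF5_gRNA1, 674.9 CPM for PCGF5_gRNA2, 2176 CPM for PCGF5_gRNA3 and 993.2 CPM for PCGF5_gRNA4, against 664.8 to 1134 CPM in single non-targeting gRNAs. The value of PCGF5_gRNA3 alone was above that range.

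The median cells were at similar levels. The summed list was at 689.2 CPM in the median PCGF5 gRNA cell (quartiles 574.2 and 856.8) and at 699.5 CPM in the median non-targeting cell (570.5 and 877.3). One cell of PCGF5_gRNA3, with 35518 UMIs, had 1361 UMIs of the list, 38319 CPM, the highest of all 5744 cells. A second cell, of PCGF5_gRNA4, with 44303 UMIs, had 364 UMIs of the list, 8216 CPM, the sixth highest. The third PCGF5 gRNA cell was at 1499 CPM. In non-targeting cells the highest were at 10971, 4608 and 3853 CPM. Above 5000 CPM, a limit set after the values were seen, were 2 of 99 PCGF5 gRNA cells (2.02%, 0.246 to 7.11%, Clopper-Pearson), 1 of 167 EZH2 gRNA cells (0.599%), 0 of 190 MTF2 gRNA cells, which allows a share of up to 1.92%, and 1 of 696 non-targeting cells (0.144%, 0.00364 to 0.798%). The whole series had 14 such cells (0.244%), and 28 cells lay between 2500 and 10000 CPM.

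**Figure D3:**
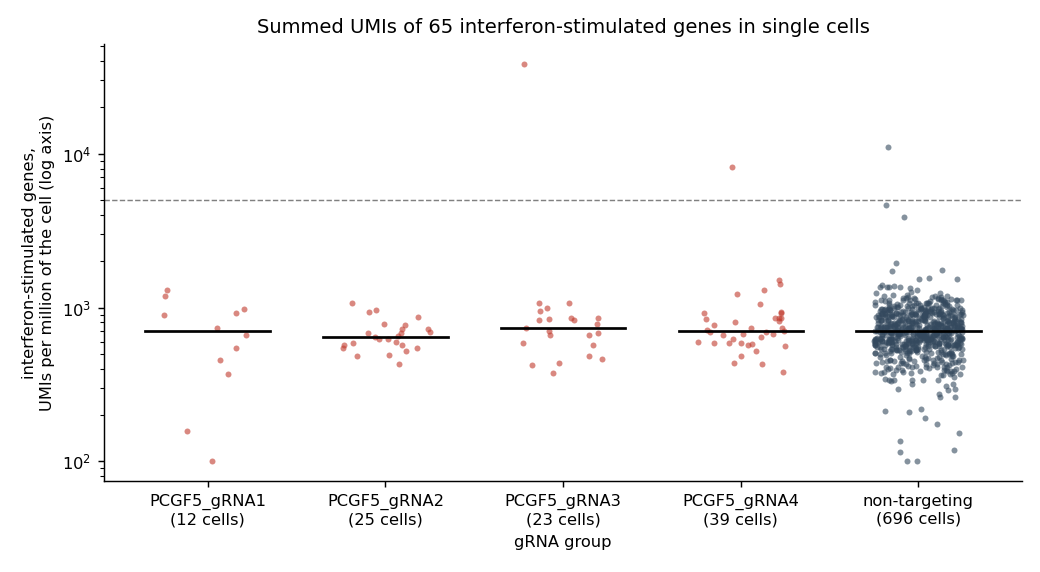
Summed CPM of 65 interferon-stimulated genes in each cell (vertical log axis) by PCGF5 gRNA (left, 4 groups) and in non-targeting cells (right); each point is a cell, black lines are medians, the dashed line marks 5000 CPM and 3 cells under 100 CPM are drawn at 100. One PCGF5_gRNA3 cell at 38319 CPM and one PCGF5_gRNA4 cell at 8216 CPM stand above medians that lie between 643.0 and 737.8 CPM in the 4 groups and at 699.5 CPM in non-targeting cells.

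With every cell thinned to 10000 UMIs, the same 2 cells stood out. The thinning left out 6 PCGF5 gRNA cells and 46 non-targeting cells as too shallow. At least 5 list genes were then detected in 67 of 93 PCGF5 gRNA cells (72.0%, 61.8 to 80.9%) and 475 of 650 non-targeting cells (73.1%, 69.5 to 76.5%). Before thinning the shares were 94.9% and 93.4%. The median was 6 list genes in both pools, while the highest PCGF5 gRNA cells had 42 and 19 list genes and the highest non-targeting cells 35 and 13.

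In the PCGF5_gRNA3 cell, 53 of the 65 genes were detected. OASL, a sensor-binding homolog of the 2-5A synthetases, had 129 of the pool's 148 UMIs in this cell and the other 19 in the PCGF5_gRNA4 cell, so that 97 PCGF5 gRNA cells had none, against 12 UMIs in 12 non-targeting cells. IFIT1, IFIT2 and IFIT3, which bind viral RNA or form complexes with those that do, had 149, 127 and 159 UMIs in it. The ubiquitin-like modifier ISG15 had 316 of 625 UMIs, and HERC5, the ligase that attaches it, 94 of 186 UMIs. The RNA sensors DDX58 (RIG-I) and IFIH1 (MDA5) had 30 of 46 and 24 of 35 UMIs, and the antiviral enzyme RSAD2, at 3 UMIs in 793 other PCGF5 gRNA and non-targeting cells, had 20. The chemokines CCL5 and CXCL10 had 15 and 4 UMIs. Of the 27 genes with at least 8 UMIs in this cell and at least 20 times the level of the other cells, 18 were on the list. Outside it were PPM1K (13 UMIs), APOL1 (8 UMIs), APOL2 (27 UMIs), HIP1R (13 UMIs), NEDD1 (13 UMIs), WARS, a tryptophanyl-tRNA synthetase (24 UMIs), PRR15 (11 UMIs), SLFN5 (9 UMIs) and PLAUR, the urokinase receptor (34 UMIs). The PCGF5_gRNA4 cell had a narrower set, led by OASL (19 UMIs), ISG15 (192 UMIs), ISG20 (29 UMIs), IFIT3 (16 UMIs), HERC5 (17 UMIs) and DDX60 (11 UMIs), with 3 UMIs of IFIT1 and none of DDX58, IFIH1 or MX1. Outside the list, RARRES3 met the same limits in this second cell, with 22 UMIs.

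Transcripts of interferons themselves were nearly absent. IFNB1 and the genes IFNL1, IFNL2 and IFNL3 had 0 UMIs in both cells and in both pools, and of the listed ligands only IFNE had UMIs in PCGF5 gRNA cells (10 UMIs, against 45 UMIs in non-targeting cells). The receptor genes IFNAR1 and IFNAR2 were at -0.08 and -0.07, and JAK1 at 0.00. The members of the receptor and kinase list furthest from 0 were TYK2 at -0.31, IFNGR1 at -0.24 and JAK2 at 0.11. PCGF5 itself had 3 UMIs in the first cell and 1 UMI in the second. Their mitochondrial shares were 10.2% and 12.4%, beside 12.3% in the pool of PCGF5 gRNA cells and 12.1% in non-targeting cells. They had 22 and 19 UMIs of their gRNA, against medians of 39 and 49 UMIs in their gRNA groups. No doublet caller was run beyond the removal of cells with several gRNAs, and whether the response followed from the gRNA was not tested.

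Without the 2 cells the list was level with control. The sum was then 735.2 CPM in 97 PCGF5 gRNA cells and 737.3 CPM in non-targeting cells (ratio 0.997, 0.958 to 1.04), 4 of the 44 genes were higher and 3 (OASL, MX1 and IRF7) lower, and the median log2 ratio was 0.03. OASL was then at -0.56, with no UMI left in PCGF5 gRNA cells and only 12 UMIs in non-targeting cells. IFIT1 was at -0.44 and ISG15 at -0.32, while IFIT2 (0.87), SP110 (0.57), SAMD9L (0.57) and APOL6 (0.52) stayed past the fold. The non-targeting cell at 10971 CPM, of CTRL00545, had 121 UMIs of ISG15 and 17 of MX1 but 1 of OASL and 0 of IFIT2. With that cell left out too, the ratio was 1.02 (0.979 to 1.06).

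**Figure D4:**
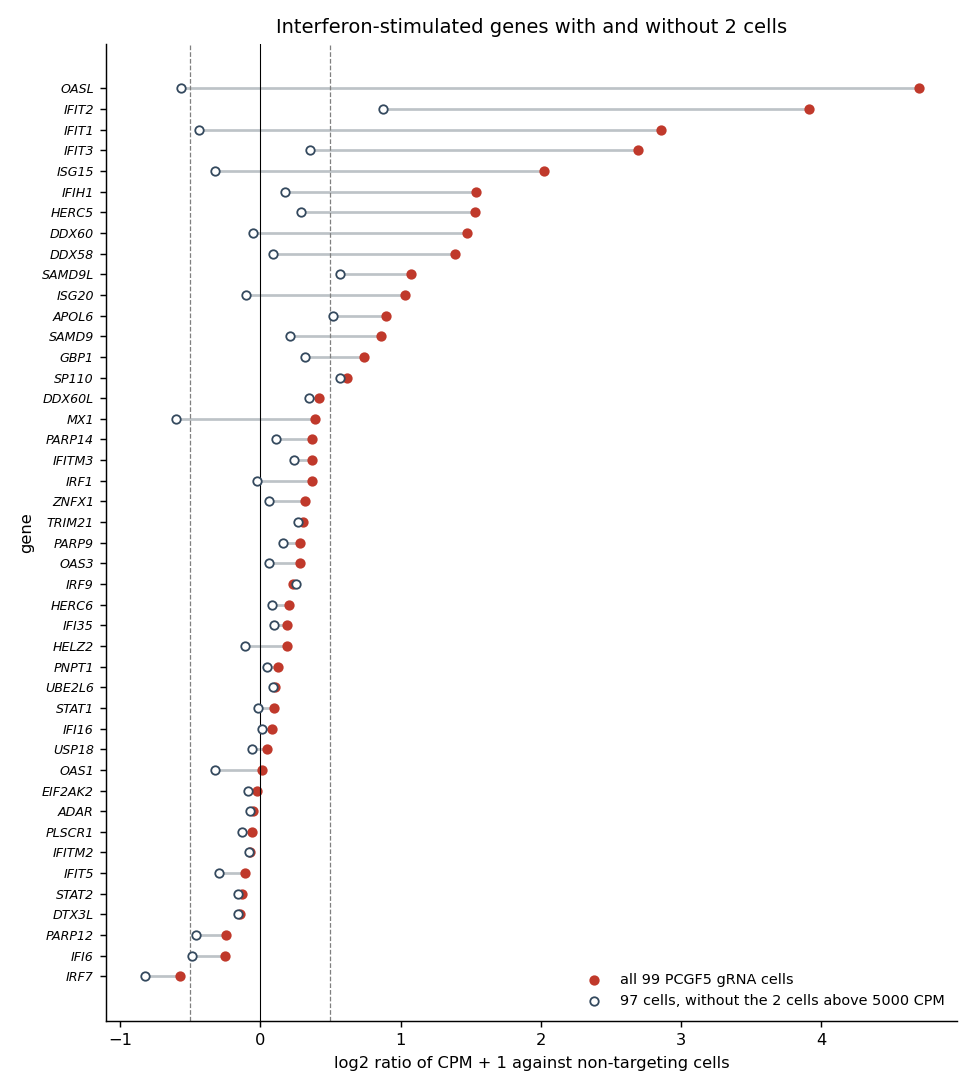
Log2 ratio of CPM + 1 against non-targeting cells (horizontal axis) of the 44 interferon-stimulated genes measured, in all 99 PCGF5 gRNA cells (filled) and in the 97 cells left without the 2 cells above 5000 CPM (open); dashed lines mark 0.5 in each direction. Members past 0.5 number 15 with all cells and 4 without the 2 cells, and OASL is at 4.70 with all cells and at -0.56 without them.

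Promoter sequence is shown for 3 of the genes that led in the PCGF5_gRNA3 cell, because the list as a whole holds a known element often. The letters GAAANNGAA (TTCNNTTTC on the other strand), the core of the interferon-stimulated response element, occur at least once from 250 bases before to 50 after the start of 32 of 51 listed genes with a promoter entry (62.7%), and in 8.29% of 27305 promoters of RefSeq (GRCh38.p14). Shown are the bases from 170 to 71 before the start of 3 of them, on the plus strand, with matches in capitals; overlapping matches run together.
ISG15, chr1:1013327-1013426: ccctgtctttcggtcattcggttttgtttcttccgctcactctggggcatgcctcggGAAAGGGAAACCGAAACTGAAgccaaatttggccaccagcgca
IFIT1, chr10:89392453-89392552: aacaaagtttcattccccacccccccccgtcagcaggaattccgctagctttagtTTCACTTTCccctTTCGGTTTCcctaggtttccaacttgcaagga
IFIT3, chr10:89327827-89327926: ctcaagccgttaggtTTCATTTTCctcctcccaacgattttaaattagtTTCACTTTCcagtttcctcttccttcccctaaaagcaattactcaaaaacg
ISG15 has 3 matches in this stretch, and IFIT1 and IFIT3 have 2 each. SERTAD4 has none from 250 bases before to 50 after its start. A match is a run of letters and was not tested as a binding site.

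The other lists had medians between -0.30 (secretory epithelial genes) and 0.11 (developmental regulators). Of 23 lists with at least 5 measured members, only ribosomal protein genes had a pool median outside the range of single non-targeting gRNAs. Their median was -0.05, against -0.04 to 0.05, 25 of 26 genes were below 0 and 0 passed the fold; RPS2, RPS6 and RPL13 were furthest, at -0.15, -0.11 and -0.10. Nucleic acid sensors had a median of -0.02, and the 2 of 7 past the fold were DDX58 and IFIH1, of which 65.2% and 68.6% of the UMIs lay in the PCGF5_gRNA3 cell of 38319 CPM. MAVS, the adaptor of both, was at -0.13. MHC class I genes had 0 of 17 past the fold, with TAP1, the peptide transporter, at 0.40 and PSMB9, an immunoproteasome subunit, at 0.38, both above every single non-targeting gRNA (highest 0.36 and 0.27), and NLRC5, a transactivator of these genes, at 0.35, inside its range. p53 targets had 0 of 25 past the fold, and the 3 furthest from 0 ran both ways. BTG2, an antiproliferative factor, was at -0.46 (35 UMIs in PCGF5 gRNA cells, 315 UMIs in non-targeting cells; -1.91, -1.06, -0.06 and -0.19 by gRNA), and TP53INP1 at -0.39 (15 and 132 UMIs), also below 0 with all 4 gRNAs. FAS, the death receptor, was at 0.44 (68 UMIs in PCGF5 gRNA cells, 312 UMIs in non-targeting cells; 0.70, 0.53, 0.27 and 0.39 by gRNA).

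Cell cycle genes were level in the pool. S phase genes had a median of 0.01 with 1 of 37 higher, CDC45, a helicase factor, at 0.58 (next were UNG at -0.38 and CCNE2 at -0.36), and G2/M genes a median of -0.01 with 1 of 45 higher, the mitotic kinesin KIF20A at 0.70 (next were KIF20B at 0.28 and ANLN at 0.26). KIF20A had 59 UMIs in PCGF5 gRNA cells and 220 UMIs in non-targeting cells, was above 0 with all 4 gRNAs (1.16, 0.30, 0.41 and 0.96) and lay above every single non-targeting gRNA (highest 0.51). The 12 cells of PCGF5_gRNA1 had an S phase median of -1.29, below the -0.40 to 0.51 of non-targeting gRNAs, while the other 3 groups were at 0.32, -0.01 and 0.00. NF-kB targets had 2 of 15 lower, the neutrophil chemokines CXCL3 (-0.62; 42 UMIs in PCGF5 gRNA cells, 422 UMIs in non-targeting cells) and CXCL8 (-0.53; 18 and 176 UMIs), while the monocyte chemokine CCL2 was at 0.41.

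Secretory epithelial genes had a median of -0.30, inside the -1.79 to 0.51 of single non-targeting gRNAs, and 2 of 7 were lower, the mucins MUC5AC (-0.81; 34 UMIs in PCGF5 gRNA cells, 397 UMIs in non-targeting cells) and MUC1 (-0.77; 10 and 126 UMIs). AGR2, which folds mucins, was at -0.38 (443 and 3675 UMIs). MUC5AC was uneven between gRNAs, at -0.02, -1.01, 0.21 and -2.52, and between single non-targeting gRNAs, at -4.12 to 1.27. Among epithelial-mesenchymal genes CDH1, E-cadherin, was at -0.60 (22 and 224 UMIs) with 0.50, -0.42, -2.25 and -0.55 by gRNA, and it was the only 1 of 17 past the fold. TWIST1, a mesenchymal transcription factor, was at -0.48 and COL4A1, a basement membrane collagen, at -0.47. NRF2 targets, which A549 cells express at a high level, had 0 of 22 past the fold and a median of -0.13, with GPX2 at -0.37, HMOX1 at -0.28 and ABCC2 at -0.27, while their sum had a ratio of 1.05, on the other side. Cholesterol synthesis (median 0.03), ATF4 (0.02), heat shock (-0.02) and immediate early genes (0.00) had 0 members past the fold, as did mitochondrially encoded mRNAs (0.01). Furthest from 0 were SC5D (-0.47), LSS (-0.26) and MVK (-0.26) in cholesterol synthesis, of which SC5D was outside its non-targeting range, and DDIT4, STC2 (0.42) and PSAT1 (0.27) among ATF4 genes. In the heat shock list they were BAG3 (-0.15), HSPH1 (0.13) and DNAJB4 (-0.10), in the immediate early list KLF4 (0.43), MYC (0.35) and ZFP36 (-0.30), and in the mitochondrial list MT-ND6 (0.10), MT-ND3 (0.07) and MT-CO2 (0.07).

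Epithelial markers were present throughout both pools. All 99 PCGF5 gRNA cells held UMIs of the keratins KRT8 and KRT18, as did 695 and 696 of 696 non-targeting cells, and the lung markers NKX2-1, SFTPB and SFTPC had 0 UMIs in PCGF5 gRNA cells and 1, 0 and 2 UMIs in non-targeting cells. The summed markers of A549 and lung epithelium were at 14708 CPM in PCGF5 gRNA cells and 16090.4 CPM in non-targeting cells, and 0 of its 7 measured genes were above 0 (median -0.17; AGR2, AKR1B10 and KRT18 were furthest, at -0.38, -0.23 and -0.17). Of the immune and blood list 1 gene was measured, CD14, with 28 UMIs in PCGF5 gRNA cells and 176 UMIs in non-targeting cells, and the list summed to 28 and 178 UMIs; its defining markers PTPRC and CD3E were at 0 in both pools. The endothelial list summed to 0 UMIs in PCGF5 gRNA cells and 4 UMIs in non-targeting cells, with VWF and KDR at 0 in both. Of the fibroblast list 2 genes were measured, ACTA2 (-0.01) and COL1A1 (-0.03), with a sum of 41.1 CPM in PCGF5 gRNA cells and 40.2 CPM in non-targeting cells, and COL1A2 and DCN were at 0 in both pools. Of the markers of HEK293T, in which the lentivirus was made, 2 were measured: NEFL was at 0.55 (62 UMIs in PCGF5 gRNA cells, 261 UMIs in non-targeting cells) and INA at -0.14 (65 and 456 UMIs), and the summed list was at 36.6 CPM in PCGF5 gRNA cells and 30.9 CPM in non-targeting cells. The part of these levels in other results was not tested.

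Side by side with the other Polycomb targets, the named genes took differing values. SERTAD4 was at 1.34 in PCGF5 gRNA cells, 0.22 in EZH2 gRNA cells and 0.33 in MTF2 gRNA cells, VCAN at 1.15, -0.23 and 0.80, SASH1 at 0.87, 0.18 and 0.19, and GPNMB at 0.98, 1.19 and 0.45. On the lower side, MROH8 was at -1.77, -0.17 and -0.48, CES1 at -1.53, 1.49 and 0.45, and AC027031.2 at -1.25, -0.14 and -0.04. These pools share the non-targeting cells, and differences between them were not tested.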

How the data were processed

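The deposited values are raw UMI counts per gene and per gRNA in each cell barcode, as the authors obtained them: libraries were made from 1 pool with a 10x 3′ kit, counted with Cell Ranger 3.1.0 (file header) against GRCh38, gRNA reads were assigned to the designed spacers, and only barcodes called as cells were kept. The counts carry no normalization. All 5744 barcodes and 33538 genes were read, with 210519208 gene UMIs and 206173 gRNA UMIs.

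gRNAs were called at more than 3 UMIs (0 called in 2269 cells, 1 in 3189, 2 in 272, more in 14), and UMIs were pooled as described with the results, in Python 3.11.15 with NumPy 2.4.6, SciPy 1.17.1, pandas 2.3.3, scikit-learn 1.9.0 and matplotlib 3.10.9. Ratio intervals are exact conditional binomial intervals, levels have Poisson and shares Clopper-Pearson intervals. UMIs are molecules of 1 pool, so intervals leave out any spread between cultures. The steps were tested on simulated counts. Spacers from the study's supplementary list served only to find exact matches in GRCh38, and the printed bases were read from the genome. Coordinates in the deposited gRNA names belong to a build that is not given in the sources used here; they differ from the matches by the same offset for all 4 gRNAs and were not used.

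The members and the gene lists were chosen with earlier results of these data known. Genes were named by a rule: PCGF5, PRC1 and PRC2 genes, the 12 highest and 12 lowest genes (50 UMIs or more in both pools, no PCGF5 gRNA on the other side of 0), and from each list of 5 or more measured genes the 3 with the largest log2 ratios in size; other genes were chosen after their values were seen. Genes of the Y chromosome were not named. Alternatives were other gRNA calls (more than 10 UMIs, a mixture of 2 components, 80% of the cell's gRNA UMIs), a minimum of 10000 UMIs in a cell, a pseudocount of 10 CPM, CPM averaged over cells, other minimums (200 UMIs, 1 UMI), equal weight for each gRNA, each gRNA left out, and each gene's top cell left out; 2 were added after seeing the data, with the cells of 2 gRNAs and without the 2 interferon-responding cells. Guide sequences as read by the authors, indels and protein were not analysed here. Of the listed genes, 2 are not reported here by name.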

Additional observations from a re-analysis of the deposited data

Results flagged for a closer look

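In the 4 PCGF5 gRNA groups, 1 group stood apart from the other 3 for 16 of 135 results looked at (11.9%): the gap between the furthest group and its neighbour took up most of the whole range. Sets of 4 normal draws of equal spread do this in about 1 in 20. The groups here differ in size, many of the genes were chosen for extreme values, and several share 1 cell. That rate is therefore no baseline for the 11.9%. Groups of 12 to 39 cells of 1 pool are not samples, and a single UMI weighs more in the smallest. PCGF5_gRNA3 was the high group, at 183.5 CPM for IFIT3, 140.1 CPM for OASL, 140.1 CPM for IFIT2, 165.0 CPM for IFIT1, 38.0 CPM for DDX58, 16.3 CPM for PPM1K and 36.9 CPM for APOL2, and most of that group's UMIs of these genes lay in its cell of 38319 CPM (27 of 34 UMIs for APOL2). It was also high for PXDN, at 13.03 CPM, with no UMI in that cell. PCGF5_gRNA1, with 12 cells, was the high group for MGA at 26.0 CPM, RYBP at 28.6 CPM, TAP1 at 41.5 CPM, ANLN at 75.3 CPM and ABCC2 at 59.7 CPM. PCGF5_gRNA2 was high for PSAT1 at 91.4 CPM and held the 1 UMI of MYH11 (0.914 CPM), and PCGF5_gRNA4 was low for FBRSL1 at 12.8 CPM.

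PCGF5_gRNA1 was called in 31 cells, but 19 of them held a further gRNA, and 16 of these 19 held CTRL00196, a non-targeting gRNA. These 16 cells, left out of both pools, were the joint largest group among the 174 pairs of gRNAs seen in cells, the other being KAT2B_gRNA4 with CTRL00689 (16 cells). They had 22 UMIs of PCGF5 (31.7 CPM), a ratio of 1.13 (0.705 to 1.73) to non-targeting cells, and 727.3 CPM of interferon-stimulated genes, with no cell above 1207 CPM. SERTAD4 was at a log2 ratio of 0.65 in them and APOL6 at 0.86, but VCAN was at -2.39, SASH1 at -1.44 and MROH8 at 0.68, on the other side of 0 from the PCGF5 gRNA cells. Of the genes higher with all 4 PCGF5 gRNAs, 68 of 134 were above 0 in these cells, where 55.98% of all genes measured were, and of those lower 124 of 204 were below 0, where 44.02% were. Both comparisons used the same non-targeting cells, by which these genes had been chosen. Most of these genes also had fewer than 200 UMIs. The shares over all genes are therefore not a like baseline, and no agreement is read from them.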

How the results depend on the processing

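The PCGF5 transcript lay between -0.00152 (equal weights) and 0.17 on the log2 scale under the alternatives other than leave-one-out that gave a value, and the share of thinned cells with at least 5 interferon-stimulated genes between 71.4 and 72.5%. Leaving out 1 gRNA at a time gave 0.01 to 0.24 for PCGF5, 68.5 to 74.3% for that share, 0.20 to 0.86 for the summed interferon-stimulated genes (0.20 without PCGF5_gRNA3), 266 to 510 genes higher (510 without PCGF5_gRNA4) and 300 to 552 lower (529 without PCGF5_gRNA2, 552 without PCGF5_gRNA4), and 120 to 291 higher and 190 to 408 lower with all gRNAs. The counts moved most. With 10 CPM added, 16 genes were higher, 5 lower, and 6 and 4 with all gRNAs. With means over cells, they were 481, 521 and 383 lower with all gRNAs. With a minimum of 200 UMIs, they were 63, 71, 34 and 46. With no minimum, they were 678, 689 and 498 lower with all gRNAs. With equal weight for each gRNA, 444 genes were higher. Without each gene's top PCGF5 gRNA cell, which lowers every gene by construction, they were 120, 665, 55 and 442. The summed interferon-stimulated genes were at 0.58 with equal weights, 0.57 with the 16 cells of 2 gRNAs, 0.15 without the top cell and -0.00409 without both high cells (0.65 with all cells). Of named genes, IFIT1 ranged from -0.16 (without PCGF5_gRNA3) to 3.49 with 1 gRNA left out and turned to -0.22 without its top cell and -0.44 without both cells, DDX58 ranged from -0.062 (without PCGF5_gRNA3) to 1.84, and ISG20 turned to -0.10 and OASL to -0.56 without both cells. Without both cells ISG15 (-0.32), DDX60 (-0.05), RSAD2 (-0.16) and CCL5 (-0.26) also changed sign. For RSAD2 and CCL5 all UMIs of the PCGF5 pool lay in the 2 cells. Their sign then rests on 3 and 5 UMIs in non-targeting cells, too few to be read. The cause of the other shifts was not tested. No paired analysis was possible because the series is 1 pool with no replicate numbers shared between groups.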
